A study of Homo sapiens with 4 samples.

Results

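The clustered histone genes are the replication-dependent histone genes, most of which lie side by side in a few blocks of the genome. They were taken here as the protein-coding rows of the count tables whose GENCODE v29 symbol, in the older naming of that release, begins with HIST1H, HIST2H, HIST3H or HIST4H. There were 71 such genes among 57500 rows, of which 6 encode H1, 17 H2A, 18 H2B, 15 H3 and 15 H4. The HIST1 cluster on chromosome 6 held 55 of them, HIST2 on chromosome 1 held 12, HIST3 on chromosome 1 held 3, and HIST4 on chromosome 12 held 1.

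RNA was sequenced from parental SUM159 cells, a triple-negative metaplastic breast cancer line, and from 3 NOS2KO SUM159 clones, with 1 library each. To obtain them, a double nickase CRISPR plasmid against NOS2, the gene of inducible nitric oxide synthase (iNOS), was introduced, puromycin-resistant cells were cloned, and clones were chosen by iNOS protein and by nitrite and nitrate output. No clone of unedited cells was sequenced beside them, so clonal differences, puromycin selection and the loss of NOS2 cannot be told apart. The labels number the clones 1, 5 and 6, and 3 values given for the clones below stand in that order. NOS2 itself (ENSG00000007171) had 2 parental counts and 3, 18 and 1 in the clones. Its mRNA therefore does not check the labels, and clone 5 is called the library labelled clone 5. The libraries were enriched with oligo(dT), and 90467395 to 122171287 reads per library were counted on genes. VIM, the mesenchymal filament vimentin, was at 1655 to 3855 counts per 1000000 (CPM), ESR1 at 0.741 CPM or less and PGR at 0 to 3 counts. ERBB2, the third receptor gene of the triple-negative label, was not near 0, with 48.3 CPM in the parental library and 55.6, 106 and 99.1 in the clones. Of 7 markers of other cell types, the leukocyte gene PTPRC went from 4.45 CPM in the parental library to 41.7 to 105 in the clones. The other 6 summed to 16.4 CPM in the parental library and 9.46 to 14.2 in the clones, with the T cell gene CD3E at 0 in the parental library and in clone 6. Nearly all of this sum came from PECAM1, except in the library labelled clone 5, where PECAM1 gave 7.06 of 11.4 CPM. The endothelial cadherin gene CDH5 had 1 parental count and 12, 372 and 16 in the clones, with 3.49 CPM in the library labelled clone 5. The epithelial CDH1 had 4 and then 1, 44 and 8, so both were highest in that library. The part of cells with these markers in the results was not tested.

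Cells make the proteins of these genes in S phase, when new DNA has to be packed into nucleosomes: H2A, H2B, H3 and H4 form the core particle and H1 binds the linker DNA between particles. Their mRNAs are the known exception among messengers of animal cells, since they end at a conserved stem-loop and not in a poly(A) tail. The stem-loop binding protein SLBP and the U7 snRNP guide the cut that forms this end, and NPAT activates transcription of the genes. A minor part of histone mRNA is read past the stem-loop to a downstream poly(A) signal, above all in cells that leave the cycle, and oligo(dT) enrichment retains such forms in preference. The levels below therefore measure tailed or carried-over histone RNA, and more histone mRNA cannot be told apart from a larger tailed fraction.

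The stem-loops are shown first, since they mark the end without a poly(A) tail that oligo(dT) does not bind. A stem-loop was found behind the stop codon in the GENCODE v29 transcripts of 32 of the 71 members, and none was found in the models of the other 39, of which 35 end at the stop codon. The search took in stem-loops that start within 300 bases past the stop codon. Those found lay 22 to 67 bases past it, and HIST1H2BJ, with 569 annotated bases there, held none in the range searched. Of 6 forms, those in the list below are printed 5′ to 3′ from the sense strand with the 16 bases of stem and loop in capitals. HIST2H2BE stands for the commonest form in H2A, H2B and H3 genes.
HIST2H2BE: ctccaaaGGCTCTTTTCAGAGCCacccacc
HIST1H2BD: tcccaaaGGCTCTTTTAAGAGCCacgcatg
HIST1H2AG: aaccaacGGCTCTTTTCAGGGCCacccacg
HIST1H3E: atccaaaGGCTCTTCTCAGAGCCaacca
HIST1H4E: aatcaaaGGCCCTTTTCAGGGCCgcccaca
HIST1H4I: ctaaaaaGGCCCTTTTTAGGGCCcctaagc

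The form of HIST2H2BE was found in 17 members, that of HIST1H2BD in 5, and those of HIST1H2AG and HIST1H3E in 1 each. The 8 H4 stem-loops were of the last 2 forms, 5 as in HIST1H4E and 3 as in HIST1H4I, as printed above. In GRCh38 the capitals of HIST2H2BE lie at chr1:149886188-149886203 on the minus strand and those of HIST1H4I at chr6:27139654-27139669 on the plus strand. Of the 32 members, 24 had an annotated transcript that runs over 100 bases past the stem-loop, and 8 had none that does. These 8 are called ending at the stem-loop, though their models ran 6 to 86 bases past it. Of the 24 extended members 21 had at least 10 counts over the 4 libraries, of the 8 that ended at the stem-loop 5 had, and of the 39 without a stem-loop in their models 24 had. Per kilobase of exon, the median level of these members was taken in each library and averaged over the 4 libraries. It was 0.466 CPM for the extended, 1.12 for those ending at the stem-loop and 0.409 for the rest. The extension adds to the length by which the level is divided. In sum, these classes took 36.8, 1.48 and 14.6 CPM in parental cells, and HIST3H2A is an extended member.

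Little RNA of the clustered histone genes was present in any library. The 71 members together took 4778 parental counts and 10174, 10317 and 6384 in the clones, which is 0.00528% to 0.0102% of all counts. No count was seen in any library for 8 members, HIST1H1B, HIST1H2AK, HIST1H3D, HIST1H3I, HIST2H3C, HIST2H3PS2, HIST1H4F and HIST1H4G. HIST1H2AK and HIST1H3D share 100% and HIST2H3PS2 99.5% of their exon bases with other genes, and HIST2H3C has 0% of 150-base stretches to itself, so reads from these 4 could have been left uncounted or given to another gene. Above 3 counts, the floor used here (0.0262 to 0.0332 CPM), lay 43 members in the parental library and 45 to 53 in the clones. Only 19 members exceeded 1 CPM in a library. The 5 genes with the highest mean CPM, HIST3H2A, HIST1H2BK, HIST1H1C, HIST1H2AC and HIST1H2BD, held 56.3% to 64.5% of the members' counts. Per kilobase of exon, HIST1H2BK had a mean level of 26.7 CPM, HIST3H2A 23.8 and HIST1H1C 10.4.

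Set against the parental library, the summed level of all 71 members was higher in each clone. It was 52.9 CPM in parental cells and 88.7, 96.8 and 64.8 CPM in the clones, where CPM is scaled by edgeR's TMM method. The clones came to 83.4 ± 16.7 CPM (SD, n = 3). The log2 ratio of the summed counts to the parental library was 0.75 (exact 95% interval 0.70 to 0.80), 0.87 (0.82 to 0.92) and 0.29 (0.24 to 0.35), and these intervals cover counting error only. HIST3H2A alone carried much of the excess of clone 6: without it the log2 ratio of the sum was 0.93, 1.19 and 0.10. In CPM, clone 6 was then at 37.3 against 34.8 in parental cells. Of these, the single gene HIST1H2BH took 6.12 CPM in clone 6 and 0.443 in parental cells. The excess of clone 6 thus rested on few genes. No filter enters these sums. With 1 library against 3 an exact permutation cannot give a p under 0.25.

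**Figure D1:**
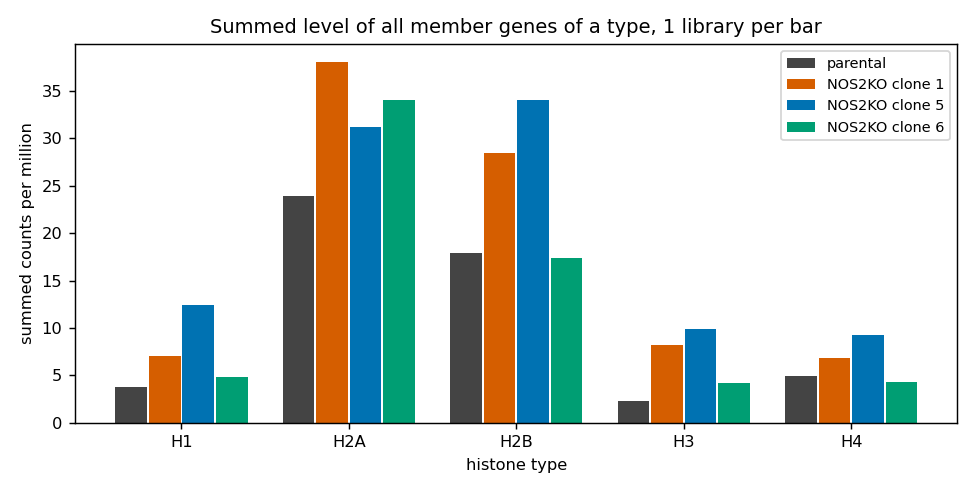
The bars give the summed TMM-scaled CPM of all member genes of each histone type (H1, H2A, H2B, H3, H4) in the parental library and in NOS2KO clones 1, 5 and 6, 1 library per bar. H3 is at 2.35 in the parental library and at 4.15 to 9.90 in the clones, while H2B in clone 6 (17.4) lies beside the parental value (18.0).

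Gene by gene, the clones differed in how far the members stood above the parental library. Over the 50 members with at least 10 counts in the 4 libraries, with a count of 0 set at the floor, the median log2 ratio was 1.54, 1.26 and 0.33. Over all 25736 genes with as many counts it was -0.07, 0.04 and -0.02. A log2 ratio above 1 was seen in 33, 34 and 11 of the 50 members, against 17.5%, 21.6% and 19.4% of all these genes. A log2 ratio below -1 was seen in 1, 3 and 4 members, against 20%, 15.1% and 17%. Clone 1 and the library labelled clone 5 thus held a larger share of doubled members than the background, and in clone 6 the share was near it.

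A member can pass such a minimum through the clones alone, so the same was counted over the 43 members with more than 3 counts in the parental library. Of these, 38, 34 and 26 were above the parental level in the clones (background 43%, 46.7% and 45.6%), and 27, 27 and 7 had a log2 ratio above 1 (13%, 15.9% and 14.7%). All 3 clones were above the parental library for 22 of the 43 (background 25%) and below it for 3 (background 34.8%).

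**Figure D2:**
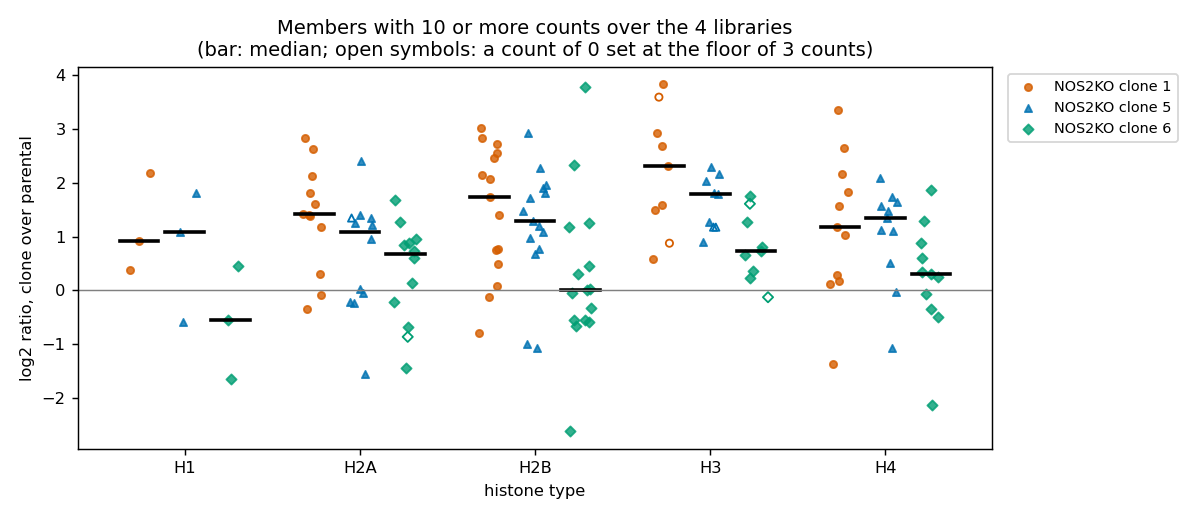
Each point is the log2 ratio of 1 member gene in 1 NOS2KO clone to the parental library, for the 50 members with at least 10 counts, by histone type, and each bar is a median. Points of clone 1 and of the library labelled clone 5 lie mostly above 0 in every type, and the medians of clone 6 run from -0.54 for H1 to 0.73 for H3.

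A fit of the 3 clones together, with the quasi-likelihood test of edgeR, covered 22511 genes, of which 46 were members. The other 25 members, mostly under 10 counts, did not pass the expression filter. Some tested members with few parental counts passed it through the clones alone. No member had an adjusted p under 0.05 (background 0.00444% of the genes tested), and the lowest was 0.399. At an unadjusted p under 0.05 there was 1 member, HIST1H3F. DESeq2's Wald test gave 4, HIST1H2BH, HIST1H3F, HIST1H3H and HIST1H3J, and likewise none after adjustment, with an adjusted p of 0.124 for HIST1H2BH as the lowest, which ran from 0.124 to 0.797 over the alternatives for that gene. By the criterion of an unadjusted p under 0.05 with a log2 fold change above 1, 1 of 46 members was called, against 4.24% of all genes tested, and in the other direction none, against 5.34%. The standard errors of 45 tested members were wide, from 0.38 to 1.64 on the log2 scale, since the spread came from 3 clones that differed among themselves (common dispersion 0.319). HIST1H3F, at 0 in the parental library, had no finite standard error. The fitted log2 fold change was above 0 for 41 of the 46 members (background 54.4%), with a median of 1.28 against 0.10 over all genes tested. Among 5166 genes tested within the same middle range of level, 0.192 to 1.81 CPM, that median was 0.29, with 61.2% above 0. All 3 clones were above the parental library for 27 of the 46 members (background 28.6%) and below it for 2, HIST1H2BN and HIST3H2BB (background 30.5%). Without the 23 members that share exon bases with another gene or 150-base stretches with another histone gene, 34 were tested and 33 had a log2 fold change above 0, with a median of 1.35.

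**Figure D3:**
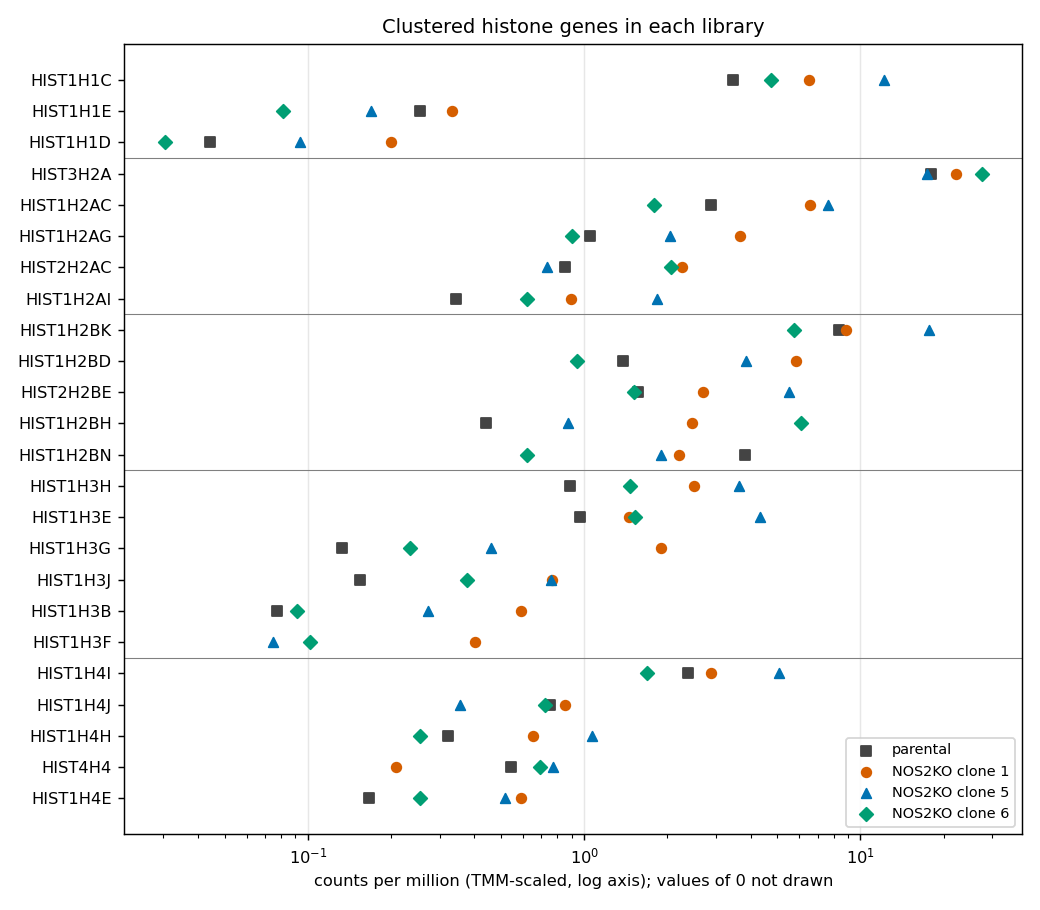
Points give the TMM-scaled CPM (log axis) of 24 member genes in the parental library and in NOS2KO clones 1, 5 and 6, ordered by histone type and by mean level. The H3 genes lie right of the parental square in every clone, while HIST1H2BN has its 3 clones left of the square, and HIST1H3F has no square because its parental count was 0.

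In H3, every tested member was above the parental library in all clones (background 28.6%). H3 carries the lysines that most histone marks of active and silent chromatin sit on, and these genes encode the forms laid down during replication. The 15 H3 members encode only 4 distinct proteins, and 10 genes share 1 of them. Their summed level was 2.35 CPM in parental cells and 8.26, 9.90 and 4.15 in the clones, or 7.43 ± 2.96 CPM in the clones (SD, n = 3). The log2 ratio of the sum was 1.82 (exact 95% interval 1.60 to 2.04), 2.08 (1.86 to 2.30) and 0.82 (0.58 to 1.07). This held for all 8 tested members, with a median fitted log2 fold change of 2.02, which was the same with the member at 0 in the parental library set at its bound. Of the 8, HIST1H3F, HIST1H3B, HIST1H3C and HIST2H3D had 0, 7, 6 and 5 parental counts. These passed the filter through the clones alone.

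HIST1H3H (ENSG00000278828, chromosome 6 of GRCh38 from 27810064 to 27811300) had 80 parental counts and 286, 388 and 145 in the clones. Its level was 0.885 CPM against 2.53 ± 1.09 in the clones (SD, n = 3), and the fitted log2 fold change was 1.52 (standard error 0.70, adjusted p = 0.516). Every clone was above the parental library and the ranges of counting error did not reach it.

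HIST1H3E had 87 parental counts and 166, 463 and 150 in the clones (log2 fold change 1.34, standard error 0.87). It was highest in the library labelled clone 5, and the other clones were close to each other. HIST1H3G (chromosome 6 from 26269405 to 26271815) had 12 parental counts and 218, 49 and 23 in the clones, a log2 ratio of 3.84 in clone 1 (exact 95% interval 3.01 to 4.81) but of 0.81 in clone 6 (-0.25 to 1.95). Its excess over the parental library was thus within counting error in clone 6. HIST1H3J had 14 parental counts and 88, 81 and 37 in the clones, with log2 ratios of 2.31, 2.29 and 1.28, and 44.6% of its exon bases are shared with the H2A gene HIST1H2AM. HIST1H3B had 7 parental counts and 68, 29 and 9 in the clones, where clone 6 again lay near the parental library. HIST1H3F (chromosome 6 from 26250195 to 26250605) had 0 parental counts and 46, 8 and 10 in the clones. Against a floor of 3 parental counts its level in the clones was at least 12.1-fold, at least 2.26-fold and at least 3.06-fold higher. It was the member that met the criterion (adjusted p = 0.399, 0.383 to 0.739 over the alternatives), and it entered the test through the clones alone.

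H2B, which pairs with H2A and carries a ubiquitin mark on transcribed genes, showed the widest range. The 18 members encode 16 distinct proteins. Their summed level was 18.0 CPM in parental cells and 28.5, 34.1 and 17.4 in the clones, and the log2 ratio of the sum in clone 6 was -0.04 (exact 95% interval -0.14 to 0.06). HIST1H2BH gave 6.12 CPM of the sum in clone 6 and 0.443 CPM of that in parental cells. Of the 15 tested, 8 were above the parental library in all clones (background 28.6%) and 2 below (background 30.5%). The median log2 fold change was 1.36. Of the 8, HIST1H2BF, HIST1H2BI and HIST1H2BL had 4, 2 and 5 parental counts and passed the filter through the clones alone.

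HIST1H2BK (ENSG00000197903, chromosome 6 from 27146418 to 27146798), the H2B gene with the highest level, had 756 parental counts and 1014, 1890 and 565 in the clones. The clones fell on both sides of the parental library, with log2 ratios of 0.08, 1.08 and -0.55. HIST1H2BD had 125 parental counts and 671, 411 and 93 in the clones, and HIST2H2BE 142 and then 308, 589 and 149. In both, clone 1 and the library labelled clone 5 lay above the parental library by more than counting error, while clone 6 was at log2 ratios of -0.55 and -0.06.

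HIST1H2BH (ENSG00000275713, chromosome 6 from 26251651 to 26253710) went against that order. It had 40 parental counts and 281, 93 and 603 in the clones, so clone 6 was the highest. The log2 ratios were 2.47 (exact 95% interval 1.99 to 2.99), 0.98 (0.43 to 1.55) and 3.79 (3.33 to 4.29), and the fitted log2 fold change, 2.83 with a standard error of 1.14 (adjusted p = 0.497), was the largest among tested members with a parental count. The neighbouring H3 gene HIST1H3F, on the other strand, had 10 counts in clone 6 and 46 in clone 1.

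HIST1H2BN (ENSG00000233822, chromosome 6 from 27837760 to 27865798) was the member with the lowest fitted log2 fold change, -1.27 (standard error 0.85, adjusted p = 0.577). It had 344 parental counts and 252, 203 and 61 in the clones, which in CPM is 3.81 against 1.57 ± 0.840 (SD, n = 3). All clones were below the parental library, with log2 ratios from -0.79 in clone 1 to -2.62 in clone 6. Its annotated exons come to 5477 bases and take in the whole of HIST1H2AK, which had 0 counts everywhere, and the end of HIST1H2AL, so its counts need not come from the H2B reading frame. HIST3H2BB had 101 parental counts and 118, 57 and 70 in the clones, below the parental level once scaled, with the difference in clone 1 (log2 ratio -0.12) the smallest.

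The H2A genes held the most counts through a single gene. HIST3H2A (ENSG00000181218, chromosome 1 from 228456979 to 228457873) had 1628 parental counts and 2542, 1862 and 2706 in the clones. Its level was 18.0 CPM against 22.4 ± 4.99 in the clones (SD, n = 3), and the fitted log2 fold change was 0.31 (standard error 0.38, adjusted p = 0.774), and the library labelled clone 5 did not separate from the parental library (log2 ratio -0.04). Without it the summed H2A level was 5.86 CPM in parental cells and 15.9, 13.7 and 6.59 in the clones.

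HIST1H2AC had 260 parental counts and 751, 814 and 177 in the clones, with log2 ratios of 1.19, 1.41 and -0.68, so clone 6 was below the parental library. HIST1H2AG, with 95 parental counts and 421, 218 and 89 in the clones, was also lowest in clone 6. HIST1H2AI, with 31 and then 103, 195 and 61, was above the parental library in every clone. HIST2H2AC, with 77 and then 259, 78 and 204, was higher in clones 1 and 6 and not in the library labelled clone 5. All 9 H2A members tested had a fitted log2 fold change above 0 (background 54.4%). In all 3 clones, 4 lay above the parental library (background 28.6%). HIST1H2AB and HIST1H2AJ, with 5 and 6 parental counts, passed the filter through the clones alone.

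The linker histone genes H1F0 and H1FX, which are not members, were at 723 and 249 CPM in the parental library. Among the clustered H1 members, mRNA was almost all from HIST1H1C (ENSG00000187837, chromosome 6 from 26055787 to 26056428). HIST1H1C had 312 parental counts and 745, 1293 and 467 in the clones. All clones were above the parental library, with log2 ratios of 0.91 (exact 95% interval 0.72 to 1.11), 1.81 (1.63 to 2.00) and 0.46 (0.25 to 0.67), and the fitted log2 fold change was 1.17 (standard error 0.66, adjusted p = 0.567). HIST1H1E had 23 parental counts and 38, 18 and 8 in the clones, and HIST1H1D 4 and then 23, 10 and 3. In both, clone 1 was the highest and clone 6 the lowest. HIST1H1T, the testis-specific H1, was at 1 or 2 counts, and HIST1H1A had 1 count in clone 6 and 0 in the rest, all at or under the floor.

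H4, nearly invariant in sequence, is encoded by 15 members of which 14 share 1 protein. The summed level was 4.92 CPM in parental cells and 6.87, 9.22 and 4.26 in the clones, and in clone 6 the log2 ratio of the sum was -0.21 (exact 95% interval -0.40 to -0.01). HIST1H4I (chromosome 6 from 27138588 to 27139881) had 214 parental counts and 331, 541 and 166 in the clones, with log2 ratios of 0.29, 1.10 and -0.49. HIST1H4E had 15 parental counts and 68, 55 and 25 in the clones, and HIST1H4H 29 and then 75, 114 and 25, where clone 6 lay within counting error of the parental library.

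HIST1H4J, with 68 parental counts and 98, 38 and 71 in the clones, and HIST4H4 on chromosome 12, with 49 and then 24, 82 and 68, had fitted log2 fold changes of -0.22 and 0.04 and clones on both sides of the parental library. HIST1H4J has the same coding sequence as HIST1H4K, so reads could not be assigned to either with certainty. Of the 11 H4 members tested, 9 had a fitted log2 fold change above 0 (background 54.4%), with a median of 1.06. In all 3 clones, 6 lay above the parental library (background 28.6%). Of these 6, HIST1H4A, HIST1H4B and HIST1H4D had 1, 2 and 3 parental counts, at or under the floor. They passed the filter through the clones alone.

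Many members of these clusters start back to back. With start sites on opposite strands at most 500 bases apart there were 12 pairs, of which 11 joined an H2A to an H2B gene. In clone 1, where 45 of the 50 members with at least 10 counts lay above the parental library, HIST1H2BJ and HIST1H2AG had log2 ratios of 2.83 and 1.80, HIST1H2BG and HIST1H2AE 2.73 and 1.62, and HIST1H2BC and HIST1H2AC 1.74 and 1.19. In clone 6 the same pairs were at 0.01 and -0.22, at 0.04 and 0.95, and at 1.17 and -0.68. Of these, HIST1H2BJ and HIST1H2AG lay within counting error of the parental library. HIST1H2AM and HIST1H2BO were in clone 6 at 0.73 (exact 95% interval -0.20 to 1.71) and -0.59 (-1.75 to 0.52). Counting error thus left the side of both open. HIST1H2AM shares 88.0% of its exon bases with HIST1H3J. HIST2H2BE and HIST2H2AC have start sites 323 bases apart. In the library labelled clone 5 HIST2H2BE was at a log2 ratio of 1.81 and HIST2H2AC at -0.22, while in clone 6 they were at -0.06 and 1.28.

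The start regions of 61 members were matched to RefSeq (GRCh38.p14), each from 250 bases before to 50 after the start, and searched on both strands for the CCAAT box, the TATA box written TATAAA and the octamer ATTTGCAT, the known element of H2B promoters. CCAAT was present in 83.6% of them against 35.7% of 27305 RefSeq start regions of the same length, TATAAA in 65.6% against 12.0%, and the octamer in 42.6% against 1.80%. All H1, H2A, H2B and H3 start regions matched held a CCAAT and only 3 of 13 H4 regions did. The octamer stood in 14 of 18 H2B regions, 11 of 14 H2A, 1 of 10 H3 and no H1 or H4. The H2B regions printed next are that of HIST2H2BE, which overlaps the region of HIST2H2AC and holds all 3 motifs, and that of HIST1H2BH, the H2B gene highest in clone 6. HIST1H4I, the H4 gene with the highest mean level, is 1 of the 3 H4 regions with a CCAAT and lacks the TATAAA that 7 of 13 hold. Capitals mark the motifs on either strand, and overlapping matches run together. The regions are chr1:149886633-149886932 (minus strand), chr6:26251364-26251663 and chr6:27139032-27139331 (plus strand).
HIST2H2BE: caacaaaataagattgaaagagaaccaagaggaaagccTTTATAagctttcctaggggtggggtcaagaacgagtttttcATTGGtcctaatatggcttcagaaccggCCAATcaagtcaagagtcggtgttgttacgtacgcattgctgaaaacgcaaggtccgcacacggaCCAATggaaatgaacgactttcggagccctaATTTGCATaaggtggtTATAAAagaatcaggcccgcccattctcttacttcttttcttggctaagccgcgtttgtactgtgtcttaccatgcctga
HIST1H2BH: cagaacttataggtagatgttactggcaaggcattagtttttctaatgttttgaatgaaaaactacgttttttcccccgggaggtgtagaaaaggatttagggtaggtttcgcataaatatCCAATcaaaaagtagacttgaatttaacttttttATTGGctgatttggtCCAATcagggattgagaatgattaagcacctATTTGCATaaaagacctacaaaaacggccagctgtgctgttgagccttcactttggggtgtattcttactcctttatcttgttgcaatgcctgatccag
HIST1H4I: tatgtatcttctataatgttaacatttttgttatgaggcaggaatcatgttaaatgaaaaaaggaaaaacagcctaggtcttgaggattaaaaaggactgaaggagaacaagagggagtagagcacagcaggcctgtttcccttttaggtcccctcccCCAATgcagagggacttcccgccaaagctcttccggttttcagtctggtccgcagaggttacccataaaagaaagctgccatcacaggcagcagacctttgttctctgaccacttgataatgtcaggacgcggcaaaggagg

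The 11 tested H2B members with the octamer had fitted log2 fold changes from 0.29 to 2.83 with a median of 1.56, and the 4 without it had -1.27 to 1.81 with a median of 0.40. The split was made after the values were seen and was not tested. A match of letters does not show that a factor binds there.

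By cluster, the log2 ratio of the summed counts to the parental library was 0.98, 1.23 and 0.08 for HIST1 and 0.97, 1.23 and 0.36 for HIST2. For HIST3, nearly all HIST3H2A, it was 0.28, -0.09 and 0.56. The median log2 fold change was 1.48 over 38 tested HIST1 members and 1.02 over 5 HIST2 members, while HIST3 (2 tested) had -0.12 and HIST4H4 0.04. The clusters were not tested against each other. Along HIST1 the members above the parental library were spread over the whole cluster in clone 1 and in the library labelled clone 5, and clone 6 had its highest value at HIST1H2BH and its lowest at HIST1H2BN.

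**Figure D4:**
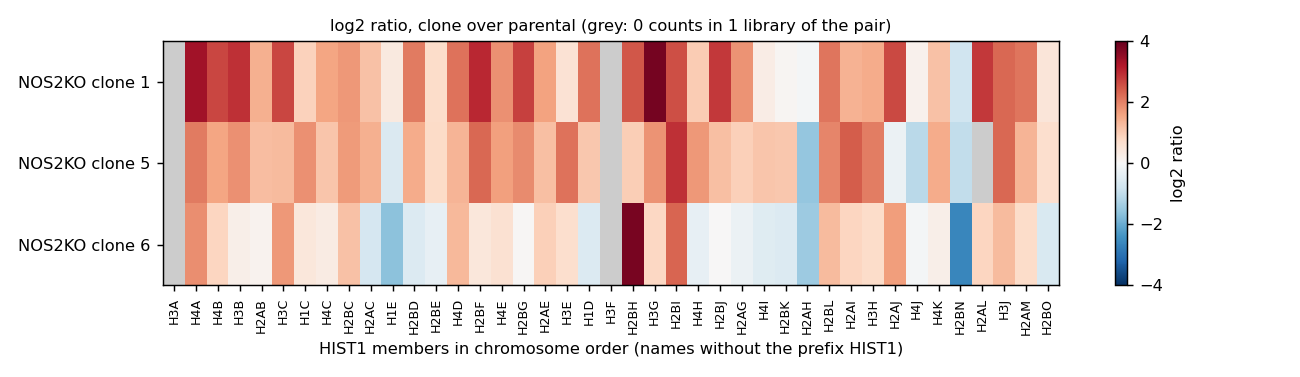
The colours give the log2 ratio of each NOS2KO clone (rows) to the parental library for the 41 HIST1 members with at least 10 counts, in chromosome order, red above and blue below 0 and grey where a library of the pair had 0 counts. Red runs along most of the rows of clone 1 and of the library labelled clone 5, and the row of clone 6 is paler, with its extremes at HIST1H2BH (3.79) and HIST1H2BN (-2.62). With a count of 0 set at the floor, 30, 32 and 10 of the 41 lie above 1 (background 17.5%, 21.6% and 19.4%).

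Other genes of the same biology were read from lists. The S-phase list of 20 genes, all tested, had 17 with a log2 fold change above 0 (background 54.4%) and a median of 0.62. Its summed level was 1346 CPM in parental cells and 2987, 1889 and 1862 in the clones. By the criterion 7 of its genes were called higher (background 4.24%) and none lower. They included the nucleotide synthesis genes TK1 (log2 fold change 2.86), TYMS (2.53) and RRM2 (2.11), the replication helicase subunits GINS2 (1.94) and GINS1 (1.53), and PCNA (1.30), the sliding clamp of DNA polymerase. After adjustment none of the 7 passed 0.05 in the test of edgeR, and 4 did with DESeq2's Wald test (GINS2, TYMS, TK1 and PCNA). TYMS, for example, had 2865 parental counts and 32116, 14381 and 13268 in the clones. S-phase genes and histone genes were thus both above the parental library in each clone in sum. In bulk libraries a larger share of cells in S phase and more of these mRNAs per cell cannot be told apart.

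The factors of histone mRNA did not follow. Of 14 transcription and processing factors 12 had a log2 fold change below 0, with a median of -0.20, and none met the criterion in either direction. Over all genes tested, 54.4% were above 0 and the median was 0.10. The median log2 ratio of the factors was -0.04, -0.33 and -0.31 in the clones, so clone 1 hardly differed from the parental library. SLBP, for example, had 6274 parental counts and 9005, 6497 and 6174 in the clones (log2 fold change -0.04, standard error 0.29), and NPAT 903 and then 1161, 986 and 1161 (0.06, standard error 0.38). Under upper quartile scaling SLBP stood at 0.06. Of 14 histone chaperones 7 were above 0 and 7 below, and only ASF1B, which hands H3 and H4 to the replication fork, met the criterion (log2 fold change 1.86, standard error 0.52, adjusted p = 0.370). With DESeq2's Wald test its adjusted p was 0.0488, and over the alternatives it ran from 0.0488 to 0.739. Of 11 tested genes listed as replication-independent histones, whose mRNAs mostly carry poly(A) tails, 8 were above 0. Their median was 0.51 and none met the criterion. Over the 12 genes of this list with at least 10 counts, the median log2 ratio was 0.65, 0.00 and -0.09 in the clones.

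RNAs that lack a poly(A) tail were read as a measure of carry-over through the oligo(dT) step. The 20 names of the list, 1 of them on 2 rows, summed to 52.5 CPM in parental cells and 44.1, 41.4 and 61.7 in the clones, almost all from the signal recognition particle RNA RN7SL2. Only 5 were tested, with a median log2 fold change of 0.00. RN7SL2 was at 51.9 CPM and then 43.3, 40.9 and 61.0, and the rest of the list summed to 0.664 CPM in parental cells and 0.863, 0.478 and 0.710 in the clones, from 51 to 99 counts, with clone 1 the highest. The part of carry-over in the histone levels was not tested.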

How the data were processed

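Oligo(dT)-enriched RNA was sequenced from parental SUM159 cells and from NOS2KO clones 1, 5 and 6, with 1 library each. Per the labels, the files that the authors deposited hold unscaled read counts for each gene, made with bcl2fastq 2.17, Trimmomatic 0.36, STAR 2.5.2b and featureCounts (Subread 1.5.2) on GRCh38. How reads on several genes or strands were treated is not given in the sources used here. Reads that match several histone copies can thus be lost or split.

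Symbols, exons and transcripts were taken from GENCODE v29, in which 70 of the 71 members have the start and end of the files. In R 4.3.3 with edgeR 4.0.16, all genes were filtered by filterByExpr, scaled by TMM and tested by glmQLFit and glmQLFTest, with Benjamini-Hochberg adjustment over 22511 genes. Every adjusted p is from this test unless another is named. The parental group has 1 library, so p-values measure the spread between the 3 clones. A log2 fold change is positive where the clones are higher. Ratios of 2 libraries carry exact 95% Clopper-Pearson intervals, which cover counting error only. DESeq2 1.42.0, 3 other scalings, other filters, robust estimation and each clone left out were the alternatives, and the tests were run on simulated data first.

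The members and lists were chosen with earlier results of these data known. Named were NOS2, SLBP and NPAT, the 5 members of each type with the highest mean CPM, members with the extreme log2 fold changes, and members and list genes that meet the criterion, of which 1 list gene is not reported here. Other members named for their values (pairs, HIST3H2BB, members at 0 and those in member counts) were chosen after the values were seen.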

Additional observations from a re-analysis of the deposited data

Results flagged for a closer look

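Of the 19 clustered histone rows that are not protein coding and so enter no comparison above, 4 stood above the parental library by more than counting error in a clone. HIST2H2BC, a transcribed pseudogene on chromosome 1, had 343 parental counts and 856, 679 and 495 in the clones, with log2 ratios of 0.98, 0.75 and 0.40. HIST2H2BD, beside it, had 23 parental counts and 59, 55 and 38. HIST1H2APS4 on chromosome 6 had 1 parental count and 37, 13 and 1, so its excess was in clone 1 and the library labelled clone 5. The log2 ratio in clone 1 was 4.87 (exact 95% interval 2.30 to 10.21). HIST2H2BB had 0 counts in parental cells, clone 1 and clone 6, and 24 in the library labelled clone 5, at least 6.78-fold higher than a floor of 3 parental counts allows. In the other direction, HIST1H4PS1 had 12 parental counts and 1, 12 and 2 in the clones, with log2 ratios of -3.93 (exact 95% interval -9.35 to -1.17) in clone 1 and -2.71 (-5.91 to -0.54) in clone 6. These pseudogenes resemble the coding genes, and how reads were split between them was not tested.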

How the results depend on the processing

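No paired analysis was possible because the parental group holds a single library, so at most 1 pair with a clone could be formed. The number of members meeting the criterion as higher was 1, and it became 2 with no filter (HIST1H3A and HIST1H3F), 0 at a minimum of 1 CPM and 4 with DESeq2's Wald test (adding HIST1H2BH, HIST1H3H and HIST1H3J), and lay between 0 (without clone 1) and 2 (without the library labelled clone 5) with a clone left out. At 1 CPM, 17 of 19 tested members had a log2 fold change above 0. Without members that share sequence, 0 of the tested members lay below the parental library in every clone, and with a clone left out this number was 2 to 5, the highest without clone 1 (with HIST1H1E, HIST1H4J and HIST2H4A). The median of H1 lay between 0.14 (without clone 1) and 1.43. In the lists, 1 replication-independent histone (H2AFV) met the criterion as higher with RLE scaling, upper quartile scaling, no filter, a minimum of 1 CPM and DESeq2. As lower, 0 to 1 of these (H1F0), 0 to 2 processing factors (CPSF2 and ZNF473) and 0 to 1 chaperones (SSRP1) did so with a clone left out, in each case the highest without clone 1. The median of RNAs without a poly(A) tail was 0.87 with no filter and -0.63 (without clone 1) to 0.27 with a clone left out.

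Signs turned in few named genes. With a clone left out, fitted log2 fold changes ran between -0.18 and 0.67 for HIST1H2BK, -0.032 and 0.75 for HIST1H4I, -0.48 and 0.086 for HIST1H4J, -0.25 and 0.43 for HIST4H4, -0.17 and 0.044 for SLBP and -0.042 and 0.15 for NPAT. SLBP was at 0.056 under upper quartile scaling, which moved the median of all genes tested from 0.10 to 0.20. The causes were not tested. HIST1H2BH also met the criterion without the library labelled clone 5. The adjusted p of ASF1B passed 0.05 with DESeq2 (0.0488), as did those of GINS2, TYMS, TK1 and PCNA. The other values computed under these alternatives kept their direction and side of the criterion, or moved by less than the spread between clones or 1.5 times for a count. At under 10 counts, where most members without a test lay, differences were not detectable at this depth.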
